A study of Mus musculus with 1279 samples.

Results

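The genes described here are 10 genes best known from tendon and cartilage: Scx, Sox9, Mkx, Tnmd, Chad, Cilp, Prg4, Acan, Vcan and Hapln1. They were taken from a list of names that was drawn up with earlier results of these data known, and all 10 were found among the 46517 genes of a count table of 1279 single cells from the mouse heart. Each cell was 1 library made with Smart-seq2, a plate-based method that copies full-length cDNA and carries no molecular identifiers. All mice were adult males of 10 to 20 weeks. The strain C57BL6 gave 45.4% of the cells, sorted with antibodies against the platelet-derived growth factor receptors and without the endothelial surface protein CD31. PdgfrbGFP gave 28.5%, Cspg4dsRED 12.7% and Acta2GFP 13.4%. In these strains a green or red fluorescent reporter was driven from the Pdgfrb, Cspg4 or Acta2 gene, so each sort reached the cells in which that reporter was on. Elastase was added to the digestion of the Acta2GFP hearts. The labels gave each cell a cluster number from 1 to 8, and these clusters held 5.47% (70 cells), 17.1%, 8.76%, 18.2%, 22.8%, 3.05% (39 cells), 9.23% and 15.3% of the cells.

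The study placed clusters 1 to 5 among fibroblasts and held cluster 1 to be likely valve interstitial cells, the fibroblast-like cells inside the leaflets. Whole hearts had been dissociated, so no value in the table says where in the heart a cell lay. Clusters 6 to 8 were taken here as mural cells, the smooth muscle cells and pericytes around vessels. As a check of the names, 5 fibroblast markers (Pdgfra, Col1a1, Col1a2, Dcn and Lum) together made up 10590 to 13824 counts per 1000000 gene counts (CPM) in the 4 strains of cluster 1, 11052 to 13684 CPM in clusters 2 to 5 and 1289 to 2536 CPM in clusters 6 to 8. The 9 chondrocyte markers summed to 30.6 to 108.6 CPM in cluster 1 and 14 to 81.3 CPM in clusters 2 to 5. Of these, Col2a1, Col9a3, Matn1, Matn3 and Snorc had no count in any cell of cluster 1, and Matn1 and Snorc had none in any cluster. With strains pooled, Col9a1 was 19.3 CPM in cluster 1 and at most 0.0731 CPM in any other cluster. Col11a2 was 18.6 CPM and at most 0.151 CPM. Cnmd was 29.3 CPM in cluster 1 and 28.9, 121.4, 3.07 and 141.9 CPM in clusters 2 to 5, so the sums hide opposite differences. The name cartilage is used here for the genes, and whether any cell was a chondrocyte was not tested.

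Heart valve leaflets are thin sheets of layered matrix that bend with every beat, and their cells are known to share regulators and matrix genes with tendon and cartilage. Scleraxis (Scx) and Mohawk (Mkx) are transcription factors of tendon progenitors, and Sox9 is the transcription factor that drives chondrocyte matrix genes. Tenomodulin (Tnmd) is a membrane protein of mature tendon cells. Chondroadherin (Chad) and cartilage intermediate layer protein (Cilp) are matrix proteins of cartilage, and lubricin (Prg4) is the mucin-like protein that lubricates joint surfaces. Aggrecan (Acan) and versican (Vcan) are large chondroitin sulfate proteoglycans that bind hyaluronan, and the link protein Hapln1 locks them onto it.

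In the GENCODE M21 annotation of GRCm38, Scx lies on chromosome 15 from 76457452 to 76459458, and Sox9 on chromosome 11 from 112782224 to 112787760. Tnmd lies on chromosome X from 133850980 to 133865577, Chad on chromosome 11 from 94565047 to 94569127, Cilp on chromosome 9 from 65265180 to 65280605, and Prg4 on chromosome 1 from 150449412 to 150466165. Acan lies on chromosome 7 from 79053483 to 79115099, and Vcan and Hapln1 are neighbours on chromosome 13, from 89655312 to 89742509 and from 89539796 to 89611652. Scx lies inside Bop1 and Chad inside Acsf2, each on the opposite strand and with no shared exonic base. Prg4 shares 4.8% of its exonic length with Tpr on the opposite strand. The strand setting of the counting was not stated, so reads in that overlap cannot be assigned. Mkx shares 4.9% of its exonic length with AC148004.2 on the same strand, a gene that is absent from the count table.

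RefSeq promoter windows of GRCm38.p6 were matched by symbol for 6 of the 10 genes, Acan, Cilp, Chad, Hapln1, Vcan and Tnmd. The windows are shown for the 4 genes whose 250 bases before the RefSeq start overlapped no annotated exon. These genes cover the patterns below, since Chad was read mainly in cluster 1, Cilp and Vcan in all fibroblast clusters, and Acan in cluster 1 and in 2 of the mural clusters. Capitals mark E-boxes, the letters CANNTG that basic helix-loop-helix factors such as Scx bind. The windows are chr11:94564797-94565046 on the plus strand for Chad, chr9:65264930-65265179 on the plus strand for Cilp, chr13:89742513-89742762 on the minus strand for Vcan and chr7:79052976-79053225 on the plus strand for Acan, each written 5′ to 3′ with its last base next to the start.
Chad: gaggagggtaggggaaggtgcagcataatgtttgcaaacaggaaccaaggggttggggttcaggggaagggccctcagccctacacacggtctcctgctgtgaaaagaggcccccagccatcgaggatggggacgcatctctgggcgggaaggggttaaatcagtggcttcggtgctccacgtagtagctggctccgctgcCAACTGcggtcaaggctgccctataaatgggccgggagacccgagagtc
Cilp: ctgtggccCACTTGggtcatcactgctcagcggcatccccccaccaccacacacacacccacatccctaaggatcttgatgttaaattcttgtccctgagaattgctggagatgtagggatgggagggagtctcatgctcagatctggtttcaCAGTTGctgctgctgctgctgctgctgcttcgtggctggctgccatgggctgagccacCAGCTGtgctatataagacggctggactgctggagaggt
Vcan: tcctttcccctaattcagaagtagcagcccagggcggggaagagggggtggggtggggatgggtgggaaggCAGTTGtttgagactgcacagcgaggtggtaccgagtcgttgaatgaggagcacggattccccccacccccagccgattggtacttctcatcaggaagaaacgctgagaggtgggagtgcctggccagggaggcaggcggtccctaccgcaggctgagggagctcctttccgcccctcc
Acan: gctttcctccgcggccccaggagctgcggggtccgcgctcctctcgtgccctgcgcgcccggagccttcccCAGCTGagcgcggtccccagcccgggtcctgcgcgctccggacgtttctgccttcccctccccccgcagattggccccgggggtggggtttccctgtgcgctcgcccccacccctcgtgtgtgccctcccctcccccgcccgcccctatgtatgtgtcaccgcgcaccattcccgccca
Chad held 1 E-box, CAACTG, 49 bases before the start, and a TATAAA 28 bases before it. Cilp held 3 E-boxes, and the one nearest the start, at 39 bases, read CAGCTG. Vcan held 1 with the letters CAGTTG, and Acan held 1 that read CAGCTG. The window of Acan was rich in CG pairs, with 26 against 3 in Cilp, 10 in Vcan and 10 in Chad. Such matches are common, since an E-box was present in 66.2% of 32851 windows of this length, CAGCTG in 13% of them, TATAAA on either strand in 12.4% and CG in 92.1%, with a median of 6. The match ACAAAG, the core of Sox motifs on either strand, was in none of these 4 windows and in 16.5% of all windows. These are letters in the sequence and not measured binding.

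The median depth was 274504 gene counts per cell (lowest 46268, highest 1302397), and between 1626 and 9383 genes were read in a cell. Because no label gives the animal of a cell, each of the 4 strains counted as 1 replicate and single cells as none, and counts were summed per strain and cluster where 3 or more cells were present. PdgfrbGFP, Cspg4dsRED and Acta2GFP came from 1 plate each, so strain, sort and plate cannot be told apart. Cspg4dsRED gave only 3 cells of cluster 1, against 19 in C57BL6, 22 in PdgfrbGFP and 26 in Acta2GFP. The authors made the clusters from these same counts, so a test between clusters says how repeatable a difference was over strains and not that the gene is independent evidence for the cluster. Intervals for shares of cells below take single cells as the unit, and limits of detection cover counting error only. Neither covers the spread between strains or animals, and copies of 1 molecule cannot be told from different molecules.

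Across the 8 clusters the genes followed 3 broad patterns. Scx, Chad, Hapln1 and Prg4 had most of their counts in cluster 1, which held 93.6%, 82.7%, 98.6% and 60.4% of all counts of these genes in 70 of the 1279 cells. Sox9, Cilp and Vcan were read throughout the fibroblast clusters, and cluster 1 held 12.8%, 17.9% and 7.77% of their counts. Tnmd, Acan and Mkx were rare, with cluster 1 shares of 60.3%, 37.4% and 62.5% that came from few cells. The plot of levels by cluster shows every strain.

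**Figure D1:**
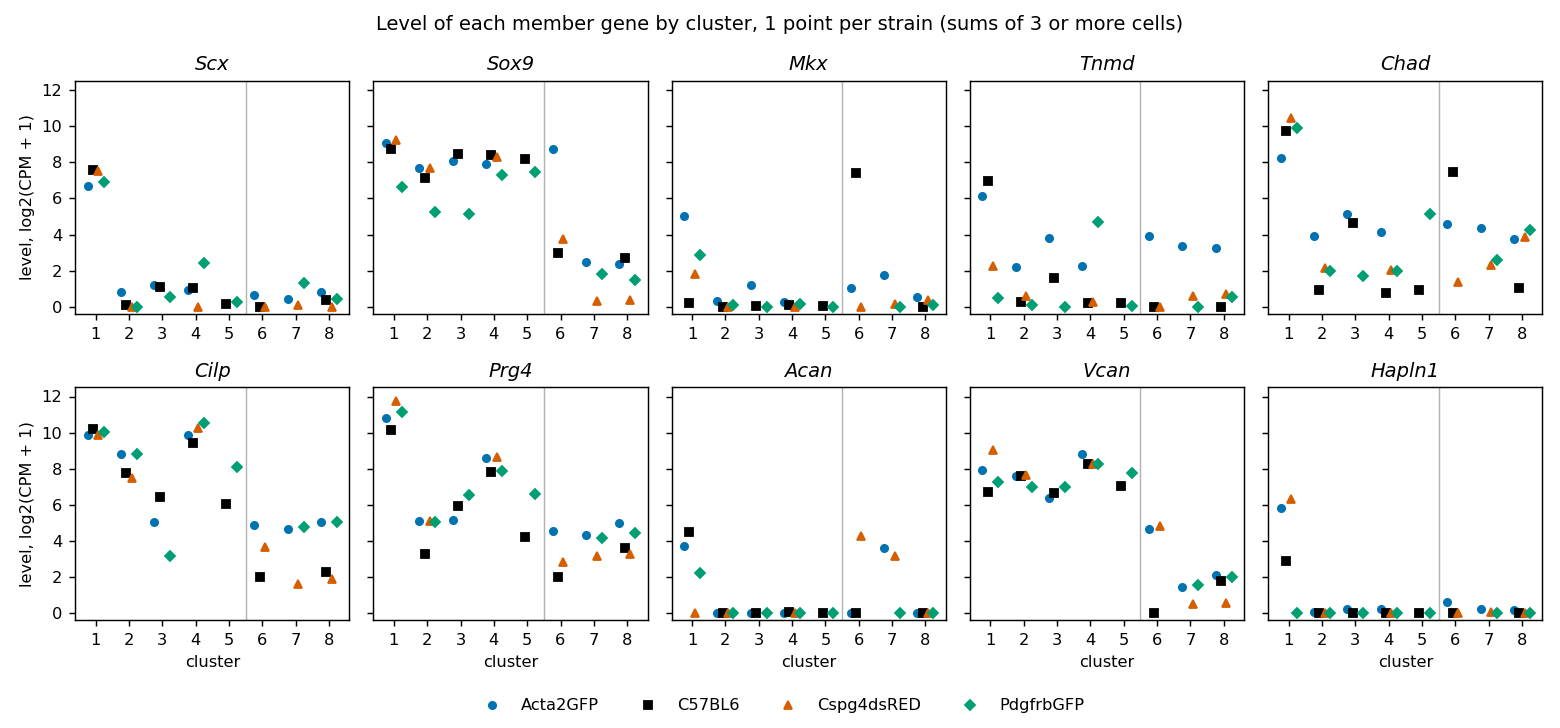
Level of each gene in the 8 clusters as log2(CPM + 1) on the y axis, with 1 point per strain for sums of 3 or more cells and a grey line between the fibroblast clusters 1 to 5 and the mural clusters 6 to 8. Scx in cluster 1 stood at 102.8 to 190 CPM in all 4 strains and at 4.26 CPM or below in every other sum, while the ranges of Cilp and of Vcan in clusters 1 and 4 overlapped.

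Per kilobase of exonic length, Chad and Prg4 were the most abundant of the genes in cluster 1, with a mean level over strains of 521 and 510 CPM per kb. The mean of Chad leaned on Cspg4dsRED at 1418 CPM, where 1 of 3 cells held 99.2% of the counts and the level without it was 16.02 CPM. The place of Chad beside Prg4 therefore rests on that cell. Cilp followed at 239.4, Sox9 at 99.8, Scx at 74 and Tnmd at 36.4 CPM per kb. The counts of Tnmd lay mainly in 1 cell of Acta2GFP and 2 cells of C57BL6, so its place in this order rests on 3 cells. Vcan stood at 17.6, Hapln1 at 5.98, Mkx at 2.50 and Acan at 1.26 CPM per kb. For Acan, all counts of C57BL6, its highest strain, lay in 1 cell. The transcript of versican was thus read more often than that of aggrecan in cluster 1 also when length was taken into account.

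Cluster 1 was compared with clusters 2 to 5 to ask which of these genes set the presumed valve cells apart from the other fibroblasts. Scx, Chad and Prg4 were higher in cluster 1, in all 4 strains and with no overlap between the groups, although in Cspg4dsRED 1 of 3 cells held nearly all counts of Scx and Chad. This was 3 of the 7 genes that passed the filter on low counts, where 0.561% of all 13201 genes tested were called higher, 0.773% lower and 1.33% in either direction at an adjusted p under 0.05. Sox9, Cilp, Tnmd and Vcan were tested and not called. Acan, Hapln1 and Mkx were not tested, because they reached the filter level in 3 sums of cluster 1 and in none of the other fibroblasts. Scx passed with 1 such sum outside cluster 1, so it entered the test through cluster 1 and had to differ. Its fold change and p-values are therefore given as a description of the size and the spread over strains, and its call supports nothing further.

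Scx in cluster 1 was 102.8 CPM in Acta2GFP, 190 in C57BL6, 182.6 in Cspg4dsRED and 118.8 in PdgfrbGFP. In clusters 2 to 5 the same strains had 0.871, 0.525, 0 and 1.38 CPM. The lowest value of cluster 1 was far above the highest of the other fibroblasts. The means were 148.6 ± 44.2 CPM (SD, n = 4) and 0.695 ± 0.582 CPM, and the fitted log2 fold change was 7.63 (SE 0.97, adjusted p = 0.00298). The call was lost without Acta2GFP (adjusted p = 0.0624) and without C57BL6 (0.0794), with log2 fold changes of 7.83 and 7.34. With the strain as a block it was 0.0383. In Cspg4dsRED 1 of the 3 cells held 99.3% of the counts of Scx, and the level without that cell was 1.78 CPM. Without Cspg4dsRED the log2 fold change was 7.20 (adjusted p = 0.00357).

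Chad in cluster 1 was 296 CPM in Acta2GFP, 835 in C57BL6, 1418 in Cspg4dsRED and 954 in PdgfrbGFP, against 18.2, 4.33, 2.98 and 16.3 CPM in clusters 2 to 5. No strain overlapped the other side, although the levels of Chad outside cluster 1 were higher than those of Scx. The log2 fold change of Chad was 6.36 (SE 0.75, adjusted p = 0.00236). Prg4 in cluster 1 was 1810, 1120, 3493 and 2301 CPM in Acta2GFP, C57BL6, Cspg4dsRED and PdgfrbGFP, against 175.7, 81.9, 213.4 and 123.1 CPM. The other fibroblasts also held Prg4, and its log2 fold change was 3.87 (SE 0.41, adjusted p = 0.00123). With the strain as a block the adjusted p was 0.0294 for Chad and 0.00203 for Prg4. In Cspg4dsRED 1 cell held 99.2% of the counts of Chad, and without it the level was 16.02 CPM, within the range of clusters 2 to 5. In Acta2GFP 1 cell held 59.6% of them, and the level without it was 125.3 CPM. Prg4 stayed at 862 CPM or above in every strain without its top cell. Without Cspg4dsRED the adjusted p was 0.0135 for Chad and 0.00849 for Prg4.

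The 19 cluster 1 cells of C57BL6 came from 2 plates, 16 cells from plate heart_203s and 3 from plate heart_316s. Scx was 213.1 CPM in the former and 53.9 CPM in the latter. Chad was 976 and 0 CPM, and Prg4 was 1288 and 127.6 CPM. Sox9 went the other way, with 257.6 CPM on plate heart_203s and 1450 CPM on plate heart_316s, where clusters 2 to 5 had 275.2 and 275.1 CPM. Without plate heart_316s the adjusted p was 0.00297 for Scx, 0.00131 for Chad and 0.00096 for Prg4.

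Sox9, Cilp and Vcan were read in cluster 1 at levels whose difference from the other fibroblasts was not called. Sox9 in cluster 1 was 531 CPM in Acta2GFP, 430 in C57BL6, 591 in Cspg4dsRED and 98.5 in PdgfrbGFP, and in clusters 2 to 5 it was 223.5, 274.3, 256.5 and 132.6 CPM. It was higher in cluster 1 in 3 of 4 strains and lower in PdgfrbGFP (log2 fold change 0.86, SE 0.45, adjusted p = 0.67). In C57BL6 it was higher only through the 3 cells of plate heart_316s, and in Cspg4dsRED 1 of 3 cells held 82.5% of the Sox9 counts, with 262.1 CPM without it. Cilp in cluster 1 was 929, 1173, 919 and 1051 CPM, against 588, 282.97, 704 and 677 CPM. These groups did not overlap, yet the log2 fold change of 0.86 (SE 0.31) had an adjusted p of 0.338. In C57BL6 1 of 19 cells held 53% of the Cilp counts of cluster 1, and the 604.7 CPM without it lay within the range of clusters 2 to 5, while in Cspg4dsRED all 745 counts lay in 1 cell. Vcan in cluster 1 was 246.2, 103.4, 515 and 155.2 CPM, against 278.3, 190.6, 240 and 220 CPM. In PdgfrbGFP 1 of 22 cells held 66.8% of these counts of Vcan, and the level without it was 55.2 CPM. Vcan was lower in 3 strains and higher in Cspg4dsRED, and the sign of its log2 fold change (0.09, SE 0.42) changed between settings.

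Tnmd in cluster 1 was 69.4 CPM in Acta2GFP, 123.7 in C57BL6, 3.70 in Cspg4dsRED and 0.372 in PdgfrbGFP. In clusters 2 to 5 it was 5.18, 0.456, 0.308 and 7.47 CPM, so the groups overlapped (log2 fold change 3.84, SE 1.64, adjusted p = 0.495). Few cells set these values. In Acta2GFP 700 of the 736 counts of Tnmd in cluster 1 lay in 1 cell, in C57BL6 all 732 counts lay in 2 cells, and in PdgfrbGFP 478 of the 479 counts of cluster 4 lay in 1 cell.

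The genes that did not enter the test were read in cluster 1 in some strains. Hapln1 was 55.7 CPM in Acta2GFP, 6.42 in C57BL6, 79 in Cspg4dsRED and 0 in PdgfrbGFP, and in clusters 2 to 5 it was 0.132 CPM in Acta2GFP and 0 in the others. Acan was 12.2, 21.8, 0 and 3.59 CPM in the same order, with 3 counts in all 856 cells of clusters 2 to 5. Mkx, on chromosome 18 from 6934518 to 7004780, was 32.1, 0.169, 2.47 and 6.19 CPM in cluster 1, against 0.396, 0.0375, 0 and 0.0466 CPM. Single cells set many of these values. In C57BL6 all cluster 1 counts of Acan and of Hapln1 lay in 1 cell, and so did those of Acan and of Mkx in PdgfrbGFP. Without the top cell, Acan and Mkx in Acta2GFP were 5.93 and 19.7 CPM, and Hapln1 in Cspg4dsRED was 37.4 CPM. In Cspg4dsRED 0 counts of Acan in 3 cells allow up to 3.70 CPM, above the 3.59 CPM of PdgfrbGFP. With no filter on low counts the adjusted p was 0.0769 for Acan, 0.0824 for Hapln1 and 0.244 for Mkx.

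**Figure D2:**
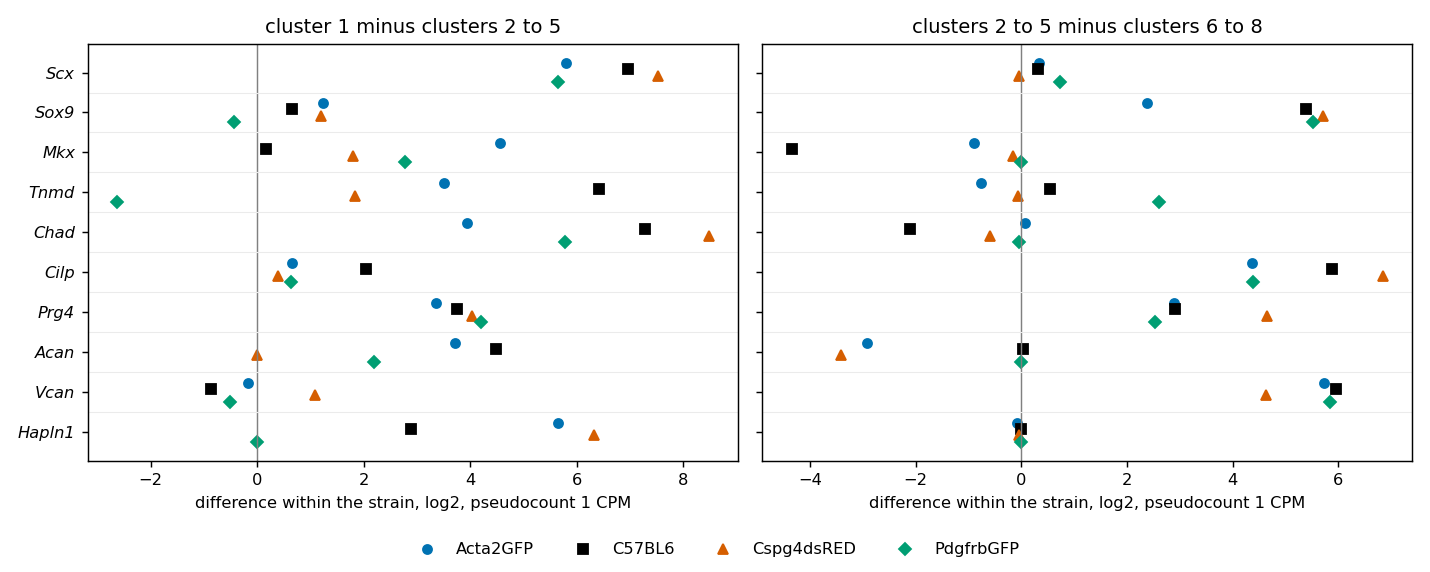
Difference of each gene within each strain in log2 units with a pseudocount of 1 CPM on the x axis, for cluster 1 minus clusters 2 to 5 (left) and clusters 2 to 5 minus clusters 6 to 8 (right), with 1 symbol per strain and a grey line at 0. On the left, Scx, Chad and Prg4 lay above 0 in all 4 strains, by 3.36 or more, and Tnmd ran from −2.63 to 6.42; on the right, Cilp and Vcan lay above 4 in all strains and Acan and Mkx at or below 0.03.

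Within cluster 1 the genes were read in different fractions of the 70 cells. At least 10 counts of Prg4 were present in 51 cells, of Sox9 in 48, of Cilp in 34 and of Vcan in 29. Chad reached that level in 23 cells, Scx in 21 and Hapln1 in 10. Acan and Mkx reached it in 4 cells each and Tnmd in 3. By strain, Scx reached it in 7 of 26 cells of Acta2GFP, 7 of 19 of C57BL6, 1 of 3 of Cspg4dsRED and 6 of 22 of PdgfrbGFP. Sox9 reached the level in 24 of 26 cells of Acta2GFP and in 8 of 22 cells of PdgfrbGFP. Hapln1 had 10 counts or more in 7 cells of Acta2GFP, 1 of C57BL6, 2 of Cspg4dsRED and 0 of PdgfrbGFP.

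The genes of cluster 1 overlapped in the same cells around Prg4. All 21 cells with at least 10 counts of Scx also had at least 10 of Prg4, and so did all 23 cells with Chad, all 10 with Hapln1 and all cells with Acan, Mkx or Tnmd at that level. None of the 19 cells below that level of Prg4 held Scx or Chad at it. Sox9 did not follow this division, since it was at 10 counts or more in 35 of the 51 cells with Prg4 (68.6%) and in 13 of the 19 without (68.4%). Sox9 was also as frequent with Scx (14 of 21 cells, 66.7%) as without it (34 of 49 cells, 69.4%). All 10 cells with Hapln1 had Sox9, but 7 of them were in Acta2GFP, where 24 of 26 cells had Sox9, and 2 in Cspg4dsRED, where 3 of 3 had it. Scx and Chad shared 12 cells, 57.1% of those with Scx and 52.2% of those with Chad. These shares describe cells that were pooled over strains, plates and depths, and no test was made of them.

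**Figure D3:**
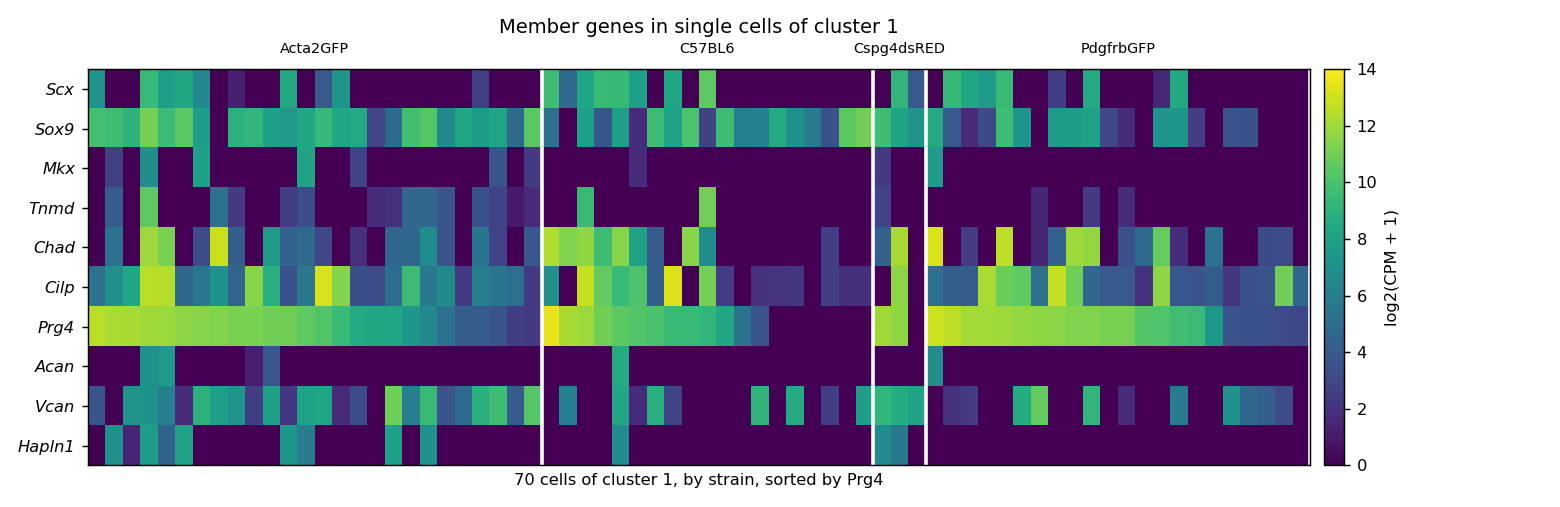
The 70 cells of cluster 1 in columns, grouped by strain and sorted by Prg4 within each strain, with the 10 genes in rows and the colour giving log2(CPM + 1) from 0 to 14. Cells with 10 counts or more of Scx or Chad all had 10 counts or more of Prg4, but bright cells of Scx also lie in the middle of a strain. The brightest cell of Scx, in C57BL6, stood at 10.5 for Scx and 9.20 for Prg4, where the highest Prg4 of that strain was 13.6. Sox9 is spread over the whole width.

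Counted per cell, a median of 3 of the 10 genes had 10 counts or more in cluster 1, and 1 cell had all 10. At least 4 of the genes reached that level in 29 cells of cluster 1 (41.4%), in 31 cells of cluster 4 (13.3%) and in 5.36% of cells or fewer in each other cluster. The median was 2 in cluster 4, 1 in clusters 2, 3 and 5, and 0 in clusters 6 to 8. The cells of cluster 1 were also read more deeply, with a median of 333384 counts per cell against 297278 in clusters 2 to 5 and 208557 in clusters 6 to 8, and the part of depth in these numbers was not tested.

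The share of cells with any count gave a weaker contrast than the level. Scx had a count in 40% of the cells of cluster 1 (95% Wilson interval 29.3 to 51.7%), in 5.84% of cells of clusters 2 to 5 (4.46 to 7.62%) and in 5.67% of cells of clusters 6 to 8 (3.70 to 8.59%). These intervals take single cells as the unit, with strains pooled, and leave out the spread between strains. In cluster 4 Scx had a count in 27.5% of cells of Acta2GFP, 3.15% of C57BL6, 9.43% of PdgfrbGFP and 0% of Cspg4dsRED. At 10 counts or more, Scx was present in 30% of cluster 1, in 0.350% of clusters 2 to 5 and in 0 of 353 mural cells. Thinning each cell to 50000 counts left a share of cells with a count of Scx of 33.9%, 1.42% and 1.75%. Chad had a count in 62.9% of cluster 1, 26.3% of clusters 2 to 5 and 36.5% of clusters 6 to 8, and at 10 counts or more in 32.9%, 4.91% and 8.78%.

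**Figure D4:**
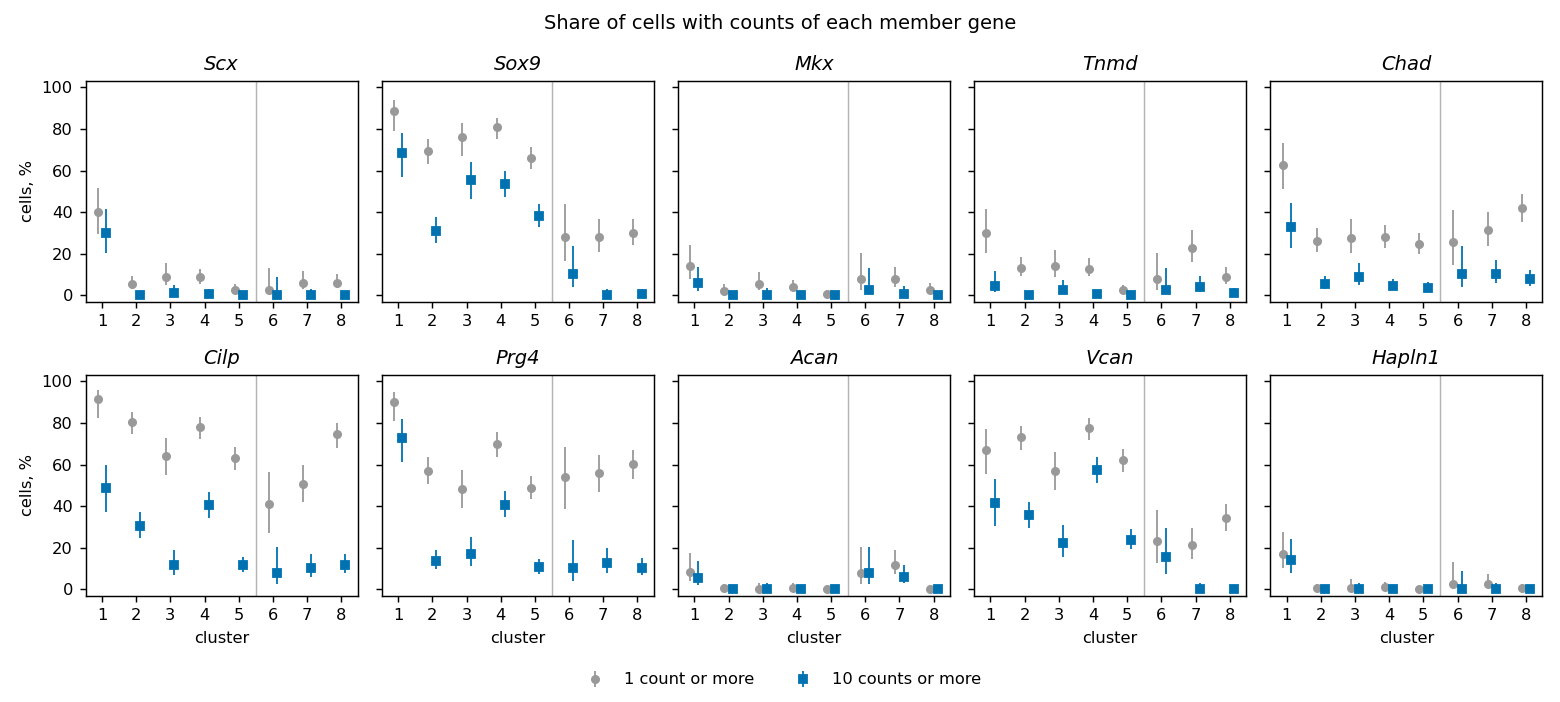
Share of cells in each cluster with 1 count or more (grey) and with 10 counts or more (blue) of each gene, in percent, with 95% Wilson intervals as bars and all strains pooled. Scx and Hapln1 at 10 counts or more were limited to cluster 1 apart from 3 cells with Scx, whereas the grey points of Prg4 and Cilp stayed above 40% in every cluster.

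Low counts of Scx, Chad and Tnmd outside cluster 1 were not spread evenly over the plates. Per the study's methods every well had an index of its own, read by dual indexing, and the wells of a plate were sequenced together. On each plate, cells of clusters 2 to 8 in the row or column of a well with 100 or more counts of a gene were set against the cells in other wells. Chad at 1 to 9 counts was present in 40.8% of the former and 6.57% of the latter on plate heart_203s, in 59.8% and 7.19% on plate heart_320s, in 52.6% and 6.38% on plate heart_517s, and in 55.2% and 39.1% on plate heart_683s. Scx at 1 to 9 counts was present in 10.5% and 1.92% on plate heart_203s, 11.7% and 0.488% on plate heart_320s, 5.26% and 0% on plate heart_517s, and 35.3% and 13% on plate heart_683s. Pooled over plates, the other genes also had the higher share in the former, for example Prg4 with 44.4% and 20% and Cilp with 57.9% and 11.8%. By plate some went the other way. Acan had 0% and 2.90% on plate heart_517s, and Mkx 16.3% and 16.7% on plate heart_683s. Prg4 had 35.7% and 50% on plate heart_203s, with 2 wells in the latter. The cause was not tested. With every count under 10 in a cell set to 0, an alternative added after the data were seen, Chad and Prg4 were still called in cluster 1 with adjusted p of 0.00316 and 0.00185. Scx had an adjusted p of 0.0329, which its entry through cluster 1 leaves without weight.

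**Figure D5:**
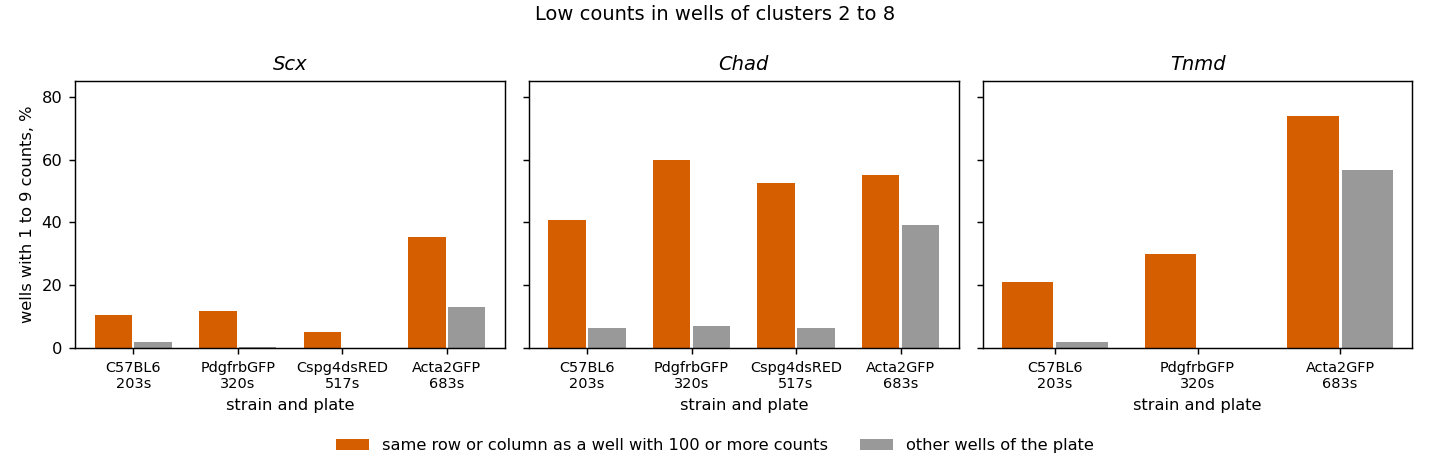
Share of wells of clusters 2 to 8 with 1 to 9 counts of Scx, Chad and Tnmd, in percent, by strain and plate, for wells in the same row or column as a well with 100 or more counts of that gene (orange) and for other wells of the plate (grey). The orange bar was the higher of the pair on every plate shown, and the grey bars were highest on plate heart_683s of Acta2GFP.

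Outside cluster 1, the cells with 10 counts or more of Scx were 3 fibroblasts. A cell of cluster 3 in C57BL6 had 24 counts of Scx together with 550 of Chad, 434 of Prg4, 1215 of Cilp and 49 of Tnmd. A cell of cluster 4 in PdgfrbGFP had 79 counts of Scx with 1523 of Cilp, and Sox9 and Prg4 were also present. The last, in cluster 4 of C57BL6, had 46 counts of Scx with 734 of Cilp, 12 of Sox9 and 4 of Vcan, and none of Prg4 or Chad. All 3 cells thus held Scx together with Sox9 and Cilp at 10 counts or more. The 5 genes that the study names for cluster 1 summed to 4931 CPM in the first, 1285 CPM in the second and 2.71 CPM in the last. None of the 3 had more than 2 counts of 1 of those genes, Wif1, a secreted Wnt inhibitor that was read at 932 to 1882 CPM in cluster 1. Such sums were not particular to these cells. A cell of cluster 7 in Cspg4dsRED with no count of Scx or Wif1 had 2574 CPM. A cell of cluster 5 in PdgfrbGFP with 1 count of Scx and 0 of Wif1 had 2802 CPM.

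Clusters 2 to 5 were compared with the mural clusters 6 to 8 to place the genes among the heart's other stromal cells, with cluster 1 left out. Vcan, Cilp, Prg4 and Sox9 were higher in the fibroblasts, 4 of the 7 genes that passed the filter, where 3.32% of all 14897 genes were called higher, 2.58% lower and 5.9% in either direction. Scx, Tnmd and Chad were not called, and Acan, Hapln1 and Mkx were not tested. The genes that were called had been read throughout the fibroblast clusters.

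Vcan in clusters 2 to 5 was 278.3 CPM in Acta2GFP, 190.6 in C57BL6, 240 in Cspg4dsRED and 220 in PdgfrbGFP, against 4.29, 2.08, 8.70 and 2.87 CPM in clusters 6 to 8. It gave the largest fold change of the genes tested here (log2 5.69, SE 0.50, adjusted p = 0.000279). Cilp was 588, 282.97, 704 and 677 CPM against 27.5, 3.82, 5.14 and 31.3 CPM (log2 fold change 5.02, SE 0.77, adjusted p = 0.00434). Both genes were higher in all 4 strains with no overlap between the groups. Prg4 was 175.7, 81.9, 213.4 and 123.1 CPM against 22.9, 10.1, 7.54 and 20.5 CPM, again without overlap (log2 fold change 3.25, SE 0.49, adjusted p = 0.00399).

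Sox9 was 223.5, 274.3, 256.5 and 132.6 CPM in clusters 2 to 5 and 42.3, 5.56, 3.93 and 1.89 CPM in clusters 6 to 8 (log2 fold change 4.06, SE 0.90, adjusted p = 0.0253). In Acta2GFP, the strain with the smallest difference, 1 cell of cluster 6 held 777 of the 784 counts of Sox9 in that cluster. The call was lost without C57BL6 (adjusted p = 0.136), Cspg4dsRED (0.0961) or PdgfrbGFP (0.0651), with log2 fold changes of 3.69, 3.66 and 3.85, and it stood without Acta2GFP (0.00327). It was also lost with counts under 10 in a cell set to 0 (0.150, log2 fold change 4.39), while the groups did not overlap.

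Scx in clusters 2 to 5 and clusters 6 to 8 was at 1.38 CPM or below in every strain (log2 fold change 1.28, SE 1.17, adjusted p = 0.70). Chad was 18.2, 4.33, 2.98 and 16.3 CPM in the fibroblasts and 17.4, 22, 5.03 and 17 CPM in the mural cells (log2 fold change −0.53, SE 0.86, adjusted p = 0.860). Tnmd overlapped as well, at 0.308 to 7.47 CPM and 0 to 9.51 CPM. The mural values of C57BL6 came mainly from 1 of 3 cells of cluster 6, which held all counts of Chad and Mkx there and gave cluster 6 of that strain 178.3 CPM of Chad and 170 CPM of Mkx. Of the 693 fibroblast counts of Chad in C57BL6, 550 lay in 1 cell of cluster 3, and of the 1049 in PdgfrbGFP, 705 lay in 1 cell of cluster 5. The cell of cluster 6 had 15838 CPM of the fibroblast markers and 13019 CPM of the smooth muscle markers.

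Acan had 478 counts in the mural clusters and 3 in clusters 2 to 5. It reached 10 counts in 10 mural cells, 7 of Cspg4dsRED and 3 of Acta2GFP, and in none of the 856 cells of clusters 2 to 5. Mkx reached that level in 2 mural cells and in none of clusters 2 to 5. The level of Acan was 18.4 CPM in cluster 6 and 8.04 CPM in cluster 7 of Cspg4dsRED and 11.3 CPM in cluster 7 of Acta2GFP. Single cells held 66.8%, 58.3% and 63% of these counts, and without them the levels were 6.41, 3.38 and 4.28 CPM. No count of Acan was present in cluster 8. These cells had 5914 to 34258 CPM of the smooth muscle markers (Acta2, Myh11, Tagln and Cnn1) and at most 5 counts of Prg4. In 1 of them, in cluster 6 of Cspg4dsRED, the fibroblast markers stood at 27694 CPM, above its 5914 CPM of smooth muscle markers, and it had 24 counts of Sox9 and 58 of Wif1. The strains C57BL6 and PdgfrbGFP had no Acan in their mural cells, but held 4 and 9 cells of clusters 6 and 7. With no filter on low counts the adjusted p for Acan between clusters 2 to 5 and clusters 6 to 8 was 0.113.

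Differences among clusters 2 to 5 were tested over the strains with 3 or more cells in a cluster. Of the 7 genes tested, Cilp alone was called (adjusted p = 0.0352), where 0.301% of 16629 genes were. Cilp was highest in cluster 4, with 951 CPM in Acta2GFP, 692 in C57BL6, 1226 in Cspg4dsRED and 1503 in PdgfrbGFP. In cluster 2 it was 455, 214.2, 177.4 and 451 CPM, and in cluster 3 it was 32.1, 84.5 and 7.86 CPM in Acta2GFP, C57BL6 and PdgfrbGFP. Cluster 5 had 66 CPM in C57BL6 and 268.04 CPM in PdgfrbGFP. Cluster 4 did not overlap any of these, but the call was lost under several settings. The adjusted p of Cilp was 0.169 with the strain as a block, 0.0931 with limma voom, 0.132 without plate heart_316s, 0.0537 with 10 or more cells per sum, 0.283 with counts under 10 set to 0 (where Prg4 was called instead), and 0.0830 to 0.449 when any 1 strain was left out.

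Prg4 and Vcan were also highest in cluster 4, with different orders below it. Prg4 in cluster 4 was 229.03 to 407 CPM, against 8.65 to 33.7 CPM in cluster 2, 34.4 to 93.9 CPM in cluster 3 and 18 and 95.1 CPM in cluster 5 (adjusted p = 0.0581). DESeq2 called it (adjusted p = 0.00037). Vcan in cluster 4 was 304 to 448 CPM, against 125.7 to 200 CPM in cluster 2, 83 to 123.96 CPM in cluster 3 and 131.7 and 217.6 CPM in cluster 5 (adjusted p = 0.220). Both ends of the Vcan range in cluster 3 came mainly from 1 cell each, and without these cells the levels were 25.9 CPM in Acta2GFP and 3.20 CPM in PdgfrbGFP. Sox9 showed no such order, with 153.9 to 337 CPM in cluster 4 and 34.7 to 355 CPM in cluster 3 (adjusted p near 1), where 1 cell held 96% of the counts behind the lowest value. In the order of mean levels over all clusters, Cilp and Vcan stood highest in cluster 4 with cluster 1 next, and their ranges in these clusters overlapped. Prg4 was highest in cluster 1, then in cluster 4 and then in cluster 3, with gaps of 2.72 and 2.37 on the log2(CPM + 1) scale, and neighbouring clusters further down overlapped. The ranges of clusters 4 and 3 did not overlap, but in cluster 4 of Cspg4dsRED 1 cell held 81.2% of the Prg4 counts (90.2 CPM without it) and in cluster 3 of PdgfrbGFP 1 of 7 cells held 94.6% (5.97 CPM without it). In cluster 2 of Cspg4dsRED 1 cell held 81.8% of them (8.13 CPM without it), and in cluster 5 of PdgfrbGFP 1 cell held 55.4% (43.5 CPM without it).

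Among the mural clusters 6 to 8 none of the 7 genes tested was called, where 0.757% of 12952 genes were. Sox9 and Acan had an unadjusted p under 0.05 in edgeR, with adjusted p of 0.148 and 0.322, limma voom called none, DESeq2 called none and gave no adjusted p for these, and with no filter on low counts Sox9 was called (0.0231). Sox9 in cluster 6 was 423 CPM in Acta2GFP, from the cell named above, 12.3 in Cspg4dsRED and 6.86 in C57BL6, and it was 0.223 to 5.56 CPM in clusters 7 and 8. Vcan in cluster 6 was 24.3, 27.5 and 0 CPM in the same strains and 0.447 to 3.29 CPM in clusters 7 and 8 (adjusted p = 0.698). Without the cell with most counts, Vcan in cluster 6 was 4.10 CPM in Acta2GFP and 8.54 CPM in Cspg4dsRED.

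The other tendon and cartilage genes moved in part with Scx, Chad and Prg4. Of 19 further tendon genes, 17 were tested in cluster 1 against clusters 2 to 5, and 4 were called higher and none lower, with a median log2 fold change of 0.39 beside −0.03 for all genes. Over all genes 0.561% were called higher and 0.773% lower. Fmod and Comp are also among the genes the study names for cluster 1 from these cells, so their calls are not independent of it. The called genes were the collagen-binding proteoglycan Fmod (log2 fold change 5.21, SE 0.59), the matrix proteins Comp (3.73, SE 0.43) and Thbs4 (3.54, SE 0.57), and Prelp (1.58, SE 0.20). Of 27 further cartilage genes, 14 were tested, 3 were higher and 1 was lower, with a median of 3.22. Col11a2, a fibrillar collagen chain of cartilage, was 8.30 to 29.6 CPM in cluster 1 and at most 0.238 CPM in clusters 2 to 5 (log2 fold change 8.14, SE 1.62, adjusted p = 0.0390), so it passed the filter through cluster 1 alone and had to differ. Cilp2, the paralog of Cilp, was 27 to 273.6 CPM against at most 1.03 CPM (8.06, SE 1.18, adjusted p = 0.00769), and it too passed mainly through cluster 1, while Cilp itself was not called. The count and median of the cartilage genes rest in part on genes that entered in this way. Cytl1, a secreted protein of chondrocytes, was higher by 4.34 (SE 0.54), and the matrix adaptor Matn2 fell by 1.28 on the log2 scale (adjusted p = 0.0495).

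Among 26 partners of Acan, Vcan and Hapln1 in hyaluronan binding and chondroitin sulfate synthesis, 16 were tested, and the hyaluronan receptor Cd44 was higher in cluster 1 (log2 fold change 3.16, SE 0.47, adjusted p = 0.00784) and none was lower. Of 8 genes for proteases that cleave aggrecan or versican and their inhibitor, 7 were tested. The protease gene Adamts5 was 6.94 to 58.3 CPM in cluster 1 and 278.3 to 664 CPM in clusters 2 to 5 (log2 fold change −3.94, SE 0.58, adjusted p = 0.00784). Timp3, the inhibitor, was higher by 1.58 (SE 0.23, adjusted p = 0.00745). Of 15 valve development genes tested, 0 were called (4 at an unadjusted p under 0.05 in edgeR, 2 called by DESeq2 and 1 by limma voom), and of 6 mineralisation genes 0 were called (2 unadjusted, 1 by DESeq2 and 0 by limma voom), with median log2 fold changes of 1.35 and 0.73. With 1.33% of all genes called, 0 of so few genes says little about these lists. Over all 13201 genes, 1171 had an unadjusted p under 0.05 in edgeR, and DESeq2 called 5.22% and limma voom 2.93%, and the list counts of these tools here and below are to be read against those. The 5 genes that the study's text names for cluster 1, Wif1, Comp, Thbs1, Fmod and Cyp2e1, were all higher. That list was chosen by the study on these cells and is no independent evidence. Pdgfra fell by 1.99 (SE 0.34) while the other 4 fibroblast markers were not called. Summed markers of other cell types in cluster 1 were 125.5 to 730 CPM for mural cells, with 63.6 to 210.2 CPM in clusters 2 to 5. The pericyte markers did not overlap between the groups, at 162.9 to 849 CPM in cluster 1 and 100.5 to 154.3 CPM in clusters 2 to 5. Smooth muscle markers were 259.1 to 985 CPM and 48.1 to 563 CPM, endothelial markers 30.4 to 177.8 CPM and 8.62 to 264.7 CPM, and cardiomyocyte markers 38.5 to 186.3 CPM and 15.9 to 100.2 CPM in the same groups. Immune markers summed to at most 2.54 CPM and Schwann cell markers to at most 4.94 CPM, and 3 of 4 epicardial markers had no count there. None of these lists had a gene called by edgeR in this comparison, but 2 of 5 mural markers had an unadjusted p under 0.05, and DESeq2 called 1 and limma voom 2 of them. Of the pericyte and cardiomyocyte markers 1 each had an unadjusted p under 0.05 and was called by DESeq2, and limma voom called the pericyte one. No smooth muscle, endothelial or immune marker reached an unadjusted p under 0.05 or was called by either tool, and no Schwann cell or epicardial marker passed the filter. Of the chondrocyte markers 2 were tested, and Col11a2 was the one called. The part of mural, pericyte or cardiomyocyte transcripts in the levels of Scx, Chad and Prg4 was not tested, and clusters 6 to 8 themselves held at most 0.488 CPM of Scx, 22 CPM of Chad and 22.9 CPM of Prg4.

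Between clusters 2 to 5 and clusters 6 to 8, 4 of 17 tendon genes and 2 of 9 cartilage genes tested were called higher in the fibroblasts and none lower, with medians of 1.29 and 1.28 beside −0.03 for all genes. Over all genes 3.32% were called higher and 2.58% lower, and several of the counts that follow lie near these shares. Of the genes for hyaluronan binding and chondroitin sulfate synthesis 2 of 16 were higher, of the protease genes 1 of 7, and of the mineralisation genes 1 of 6, with none lower in these lists. Of the valve development genes 1 of 15 was higher and 1 lower. None of the 5 genes named by the study was called by edgeR or had an unadjusted p under 0.05, DESeq2 called 0 and limma voom 1. All 5 fibroblast markers were higher, and 4 of 5 mural, 3 of 4 smooth muscle, all 4 pericyte and 2 of 9 cardiomyocyte markers were lower.

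The genes most like each of the 10 were found by the Pearson correlation of log2(CPM + 1) over 27 sums of strain and cluster, among 15161 genes. These sums share plates, strains and depth, so the values are descriptions. Scx was most like Cyp26a1 (r = 0.975), Uts2r (0.973) and Col11a2 (0.964), and Hapln1 most like Aldh1a7 (0.978), Gm42793 (0.95) and Ostn (0.95). Chad was most like Cilp2 (0.865), Uts2r (0.839) and Zfp185 (0.833). Without the 4 sums of cluster 1, r was 0.434 for Scx and Cyp26a1, 0.0923 for Hapln1 and Aldh1a7, 0.656 for Chad and Cilp2 and 0.585 for Chad and Zfp185.

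Vcan was most like Cd34 (0.971), Gm16897 (0.964) and Fbln2 (0.952), and Sox9 was most like Vcan itself (0.897), followed by Smtnl2 (0.893) and Trf (0.892). Here r was about the same without cluster 1, at 0.974 for Vcan and Cd34 and 0.893 for Sox9 and Vcan. Cilp was most like Frzb (0.895), Pi16 (0.888) and Clec14a (0.885), and Prg4 was most like Gm17455 (0.879), Angptl7 (0.855) and Scin (0.849). Acan was most like Gm43185 (0.888), Fbxo2 (0.858) and Ppp1r14c (0.818), Tnmd most like Fgfr4 (0.776), Ptx4 (0.750) and Kcnk5 (0.742), and Mkx most like Mef2b (0.83), Dpysl4 (0.791) and Fam167a (0.749). The last 3 genes were read in few cells, so that single cells can set these values.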

How the data were processed

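The measured values were raw read counts per gene and cell, deposited by the authors as 1 table of 46609 features, of which 92 were ERCC spike-ins (1.82% of counts) and were left out. Per the study's methods, the authors demultiplexed single 50-bp reads with bcl2fastq, trimmed them with Trim Galore, mapped them with TopHat2 to GRCm38, ran a samtools step described as doublet removal, and counted reads with featureCounts. The study's reporting summary states the tools' versions. Annotation release and strand setting were not given in the sources used here. The authors removed cells of low depth, likely doublets, and cells with neither Pdgfra nor Pdgfrb, although 31 cells of the table had no count of either. No doublet caller was run here. No cell names were shared and no columns were identical.

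The 10 genes, the gene lists and the tests were chosen with earlier results of these data known. The 3 genes most like each were taken by a fixed rule, and list genes were named by largest fold change, up to 4 per direction with an adjusted p under 0.05. Counts were summed per strain and side or cluster (3 cells or more) and tested with edgeR 4.0.16 in R 4.3.3 (quasi-likelihood F test, TMM, filterByExpr with a minimum count of 10, Benjamini-Hochberg adjustment over all genes tested). Tests of several clusters used 1 F test. Shares of cells were also taken after thinning each cell to 50000 counts, which left out 2 shallower cells. Likeness was sought among genes reaching 10 CPM in a sum. CPM (counts per 1000000 gene counts of a sum) was computed from the deposited counts, and log2 values used a pseudocount of 1 CPM, which shrinks differences of low genes. Each SE was taken as the size of the fitted log2 fold change over the root of F. Where the labels name no separate animals, p-values measure the spread between strains.

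Alternatives were DESeq2 1.42.0 (also its size factors in edgeR), limma 3.58.1 with voom, no filter, strain as a block, 10 or more cells per sum, and each strain left out. Added after the data were seen were counts under 10 set to 0 and C57BL6 without plate heart_316s. The sums of a strain share its genotype, sort and, except in C57BL6 with 3 plates, its plate, and animals are not named, so the block is by strain and not by animal. The correlation of their deviations from the group means was 0.0624 to 0.157 for cluster 1 with clusters 2 to 5 and 0.0649 to 0.153 for clusters 2 to 5 with clusters 6 to 8. The fits were also run on simulated counts, and because no outcome of that is given here, it lends the results no weight.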

Additional observations from a re-analysis of the deposited data

Results flagged for a closer look

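Within each set of 4 strains, the highest or lowest value was checked for a gap to the others by Dixon's criterion at the 95% level. Of 53 sets, 7 held such a strain, and chance alone gives about 1 in 20.

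Scx in cluster 2 was highest in Acta2GFP, at a log2(CPM + 1) of 0.79 (0.728 CPM, 12 counts), with 0 to 0.0752 CPM in the others. Prg4 in cluster 2 was lowest in C57BL6, at 3.27 (8.65 CPM), with 32 to 33.7 CPM in the others. In Cspg4dsRED 1 cell held 81.8% of these counts, and the 8.13 CPM without it lay below C57BL6. Vcan in cluster 2 was lowest in PdgfrbGFP, at 6.99 (125.7 CPM), with 192.7 to 200 CPM in the others. In Cspg4dsRED 1 of 8 cells held 51.8% of these counts, and the 115.7 CPM without it lay below PdgfrbGFP. Vcan in cluster 4 was highest in Acta2GFP, at 8.81 (448 CPM), with 304 to 309 CPM in the others. Chad in cluster 8 was lowest in C57BL6, at 1.06 (1.08 CPM, 8 counts), with 12.4 to 18.3 CPM in the others. In Cspg4dsRED 1 cell held 90% of these counts, and the level without it was 1.37 CPM, close to that of C57BL6.

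For the differences within a strain, Cilp in cluster 1 against clusters 2 to 5 was largest in C57BL6, at 2.05 in log2 units, with 0.39 to 0.66 in the others, and 1 cell held 53% of the Cilp counts of cluster 1 there. Sox9 in clusters 2 to 5 against clusters 6 to 8 was smallest in Acta2GFP, at 2.37, with 5.39 to 5.71 in the others, and 1 cell of cluster 6 held most of its mural counts there. Tnmd in cluster 1 against clusters 2 to 5 went opposite ways in PdgfrbGFP (−2.63) and C57BL6 (6.42), and this difference between strains was not tested. The Tnmd counts came from 1 cell of cluster 4 in the former and from 2 cells of cluster 1 in the latter.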

How the results depend on the processing

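In cluster 1 the calls of Chad and Prg4 stood under every alternative run. Scx, which entered the test only through cluster 1 so that its calls carry no weight, was lost without Acta2GFP or C57BL6. In clusters 2 to 5 against clusters 6 to 8 the calls of Vcan, Cilp and Prg4 stood under every alternative, and Sox9 was lost without C57BL6, Cspg4dsRED or PdgfrbGFP and with counts under 10 set to 0. In this comparison 10 or more cells per sum gave the same fit as the main one. In cluster 1 against clusters 2 to 5 it gave the same fit as leaving out Cspg4dsRED, so neither was an alternative of its own. With the strain as a block (the pairing by strain), 0.742% of genes were called in cluster 1 in place of 1.33%, and Cilp was no longer called among clusters 2 to 5 (0 of the 10 genes in place of 1). The block changed no other call of the 10 genes, and with it and with limma voom the median log2 fold change of all genes in cluster 1 moved from −0.03 to −0.47 and −0.49.

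Of the genes tested in cluster 1 against clusters 2 to 5 (1.33% called), 5.22% were called with DESeq2, 2.93% with limma voom, 0.53% without the filter, 0.748% with 10 or more cells per sum, 0.585% with counts under 10 set to 0, and 0.201 to 0.748% with a strain left out (0.201% without Acta2GFP, 0.265% without C57BL6, 0.356% without PdgfrbGFP, 0.748% without Cspg4dsRED). In clusters 2 to 5 against clusters 6 to 8 (5.9%), 12.8% were called with DESeq2, 9.49% with limma voom, 2.72% without the filter and 2.72 to 3.88% with a strain left out. Among clusters 2 to 5 (0.301%), 2.77% were called with DESeq2, 1.08% with limma voom, 0.284% without the filter, 0.175% with counts under 10 set to 0, and 0 to 0.133% with a strain left out (0 genes in edgeR without PdgfrbGFP, where 1162 had an unadjusted p under 0.05). Among clusters 6 to 8 (0.757%), 1.17% were called with DESeq2 size factors, 4.48% with DESeq2, 2.56% with limma voom, 2.65% without the filter, 0.476% with 10 or more cells per sum, 0.171% with counts under 10 set to 0, and 0.104 to 1.09% with a strain left out. Of the 10 genes, those called among clusters 2 to 5 were 2 with DESeq2 or without the filter (Cilp and Prg4), 1 with counts under 10 set to 0 (Prg4 in place of Cilp), and 0 with limma voom, with 10 or more cells per sum, without plate heart_316s, or with any strain left out (0 to 0). Among clusters 6 to 8 the number was 1 without the filter. Leaving out a strain leaves fewer samples, and the other causes were not tested.

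Vcan in cluster 1 turned sign to −0.24 with limma voom, −0.066 without the filter, −0.13 with the strain block, −0.45 with 10 or more cells per sum, −0.13 with counts under 10 set to 0, and ran from −0.45 to 0.25 with a strain left out. Tnmd in clusters 2 to 5 against clusters 6 to 8 ran from −0.76 to 3.45 with a strain left out. Of the other refits of single genes, 300 kept direction and call, 15 lost a call and 4 gained one. These numbers count the identical fits with 10 or more cells per sum as refits of their own. Of 160 shares of cells recomputed at 10 counts or after thinning, 23 stayed within their interval, and 79 of 80 levels stayed within the SD when averaged over cells. Genes read in few cells, above all Acan, Hapln1, Mkx and Tnmd, were limited by the 70 cells of cluster 1 and by its 3 cells in Cspg4dsRED.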
